A study of Ovis aries with 4 samples.

Results

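Ribosomal protein genes encode the proteins that, with ribosomal RNA, form the cytosolic ribosome. They were taken here as every gene whose symbol in the deposited gene lists was RPL or RPS followed by a number (with A, X or L allowed at the end), RPLP0, RPLP1, RPLP2 or RPSA. The rule found 63 of 26478 gene identifiers, with 53 symbols: 27 of the small subunit and 36 of the large subunit, 2 of which encode stalk proteins. The gene list deposited with the nuclei libraries carried such a name for 57 identifiers, the list of the whole cells libraries for 61, and 55 were named in both. Of the others, 2 were named only in the nuclei list and 6 only in the whole cells list. All identifiers were counted in all libraries, so each was followed by its identifier. Of 79 names of the human set of cytosolic ribosomal proteins, 52 stood in either list. The other 27, among them RPS2, RPS3, RPL5 and RPLP2, are not analysed here, so every family total below leaves them out.

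The data came from frozen striatum, a deep brain region, of 4 sheep aged 5 years, measured by droplet RNA sequencing of whole cells or of nuclei, with 2 libraries of each kind. Each library was a pool of 2 animals, sheep 1 and 2 for replicate 1 and sheep 3 and 4 for replicate 2, as the titles have it. In the protocol text the other suspension of cells is from animals 2 and 3, and the titles were followed. Whole cells were freed from the tissue with papain, a protease, and nuclei by homogenising it in a buffer with detergent. The labels give no genotype, treatment or sex for any group, and a pool cannot be resolved into its animals.

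The ribosome reads messenger RNA on its small subunit and joins amino acids on its large subunit, and the stalk of the large subunit recruits translation factors. Messenger RNAs for ribosomal proteins are among the most abundant of most cells, are translated in the cytoplasm, and belong to the group with a terminal oligopyrimidine start, whose translation follows growth signals. In brain tissue their messages are found in neurons and glia alike. Many mammalian ribosomal protein genes have processed copies elsewhere in the genome, so reads may be shared between near-identical sequences. How the authors' counting treated such reads is not given in the sources used here, and the value of a single identifier is uncertain to that extent.

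A count here is a unique molecular identifier (UMI), which marks 1 captured RNA molecule under the barcode of 1 droplet. Non-mitochondrial UMIs numbered 125974 and 2512837 in the whole cells libraries and 69924470 and 50705635 in the nuclei libraries. Mitochondrially encoded genes took 88.7% and 86.9% of all UMIs in whole cells against 0.779% and 0.776% in nuclei, so levels are given in normalised UMIs, the UMIs of a gene per 1000000 non-mitochondrial UMIs of the library or class. A filter of 200 genes or more and a mitochondrial share of 5% or less left 0 whole cells barcodes and 8700 and 8388 nuclei. Whole cells were therefore used only as library sums, and their cell types were not named. Libraries of different kinds shared 2 to 87 barcode sequences, the whole cells libraries shared 14 and the nuclei libraries 29. Per the file headers, whole cells were counted with Cell Ranger 6.0.1 and nuclei with Cell Ranger 7.0.0. By default Cell Ranger counts intronic reads in version 7.0.0 and not in version 6.0.1. The setting used is not given in the sources used here, and intronic UMIs, where counted, enter the non-mitochondrial total by which every share and level of nuclei is divided. Counting version and library kind cannot be told apart in any comparison of nuclei with whole cells below, and nor can fewer cells of a type and less RNA per cell.

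Ribosomal protein genes held a far larger share of the non-mitochondrial RNA of whole cells than of nuclei. They gave 22949 of these UMIs in whole cells replicate 1, which is 18.2% (Wilson 95% interval 18.0 to 18.4%), and 383539 in whole cells replicate 2, which is 15.3% (15.2 to 15.3%). In nuclei replicate 1 they gave 184983 UMIs or 0.265% (0.263 to 0.266%), and in nuclei replicate 2 153307 UMIs or 0.302% (0.301 to 0.304%). The kinds did not overlap. The mean share was 16.7% ± 2.09 (SD, n = 2) in whole cells and 0.283% ± 0.0267 (SD, n = 2) in nuclei, which from geometric means is a 59.0-fold difference or -5.88 on the log2 scale. The log2 difference was -6.11 between the libraries of sheep 1 and 2 and -5.66 between those of sheep 3 and 4. The exact two-sided permutation test gave p = 0.333, the smallest p that 2 libraries against 2 can give.

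The size of this difference rested on the denominator and on which barcodes were summed. Over all UMIs, mitochondrial ones included, the shares were 2.06% and 1.99% in whole cells against 0.262% and 0.30% in nuclei, a 7.22-fold difference. Per 100 mitochondrial UMIs there were 2.32 and 2.29 ribosomal protein UMIs in whole cells against 33.7 and 38.6 in nuclei, so against mitochondrial RNA the order of the kinds turned round. Numbers per barcode were much closer than shares. The median barcode held 6 and 10 ribosomal protein UMIs in whole cells against 11 and 10 in nuclei.

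The share also moved with barcode depth within each kind. In whole cells replicate 1 it was 17.4% in barcodes under 50 non-mitochondrial UMIs, 23.4% between 50 and 100, 25.3% between 100 and 200 and 12.1% between 200 and 500 (79 barcodes), so it was higher before it was lower. In whole cells replicate 2 it was 13.7% in barcodes under 50 non-mitochondrial UMIs, 15.8% between 50 and 100, 17.4% between 100 and 200, 14.2% between 200 and 500, 5.24% between 500 and 1000 (43 barcodes) and 2.06% between 1000 and 5000 (57 barcodes). In nuclei it was 1.10% and 0.951% between 500 and 1000, 0.480% and 0.478% between 1000 and 5000, and 0.204% and 0.231% from 5000 upwards. Whole cells were above nuclei in each depth range that both kinds filled. The whole cells barcodes that reached 500 non-mitochondrial UMIs, 14 in replicate 1 and 100 in replicate 2, had shares of 2.70% and 2.93%, which left a 9.96-fold difference, and those that reached 200 genes, 68 and 269 in number, had 3.98% and 4.52%, a 15.0-fold difference. These 2 restrictions are not equal in depth between kinds, since nuclei still had far more UMIs per barcode.

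**Figure D1:**
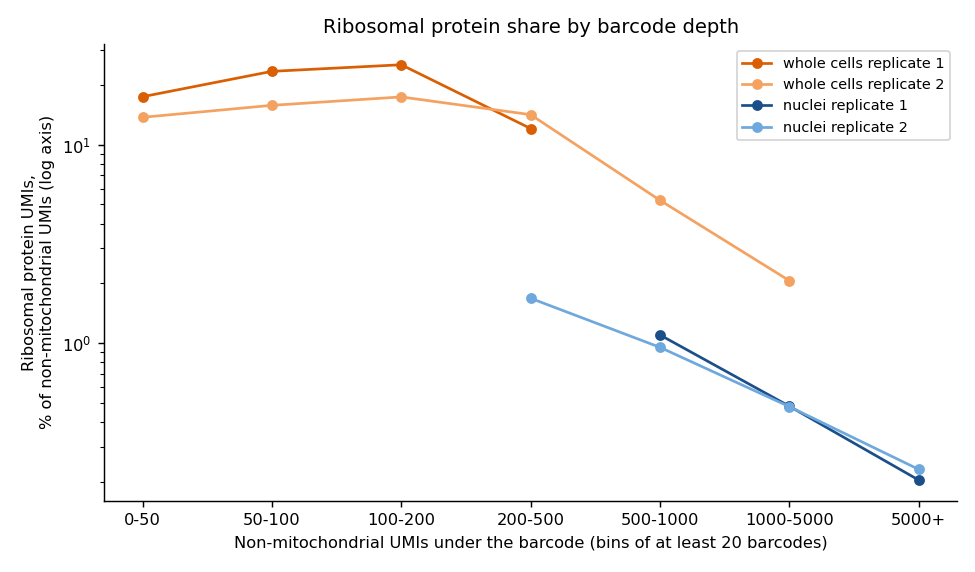
Share of ribosomal protein UMIs among non-mitochondrial UMIs (y axis, percent, log scale) in barcodes grouped by their non-mitochondrial UMIs (x axis), with 1 line per library and no bin of under 20 barcodes. The whole cells lines rise up to the bin of 100 to 200 UMIs (25.3% and 17.4%) and are lower in deeper bins, the nuclei lines fall throughout, and whole cells replicate 2 lies above the nuclei lines where the depths meet.

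Gene by gene, every tested member was lower in nuclei. The test over all genes was edgeR's quasi-likelihood test on library sums, with composition factors from TMM (trimmed mean of M values) and Benjamini-Hochberg adjustment at 0.05, and it kept 52 members after the filter on low counts. Lower in nuclei were 52 of these 52, where 22.4% of the 15781 genes tested were lower and 29.8% were higher. The median log2 fold change of these members was -5.67, from -6.94 to -2.08, beside a median of 0.61 over all genes tested, so the members lay at -6.27 relative to all genes. The size of the fold changes rested on the scaling and on the barcodes summed. The members' median was -2.70 with the total of all UMIs alone as library size, where the median of all genes was 3.66, and -2.61 in barcodes with at least 200 genes, where that of all genes was 1.09. The fold changes of single genes below come from all barcodes with TMM and carry this limit. The members that passed the filter are not the whole family, and the other 11 are described below. Only 2 libraries stood behind each kind, and each p measures the spread between 2 pools.

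**Figure D2:**
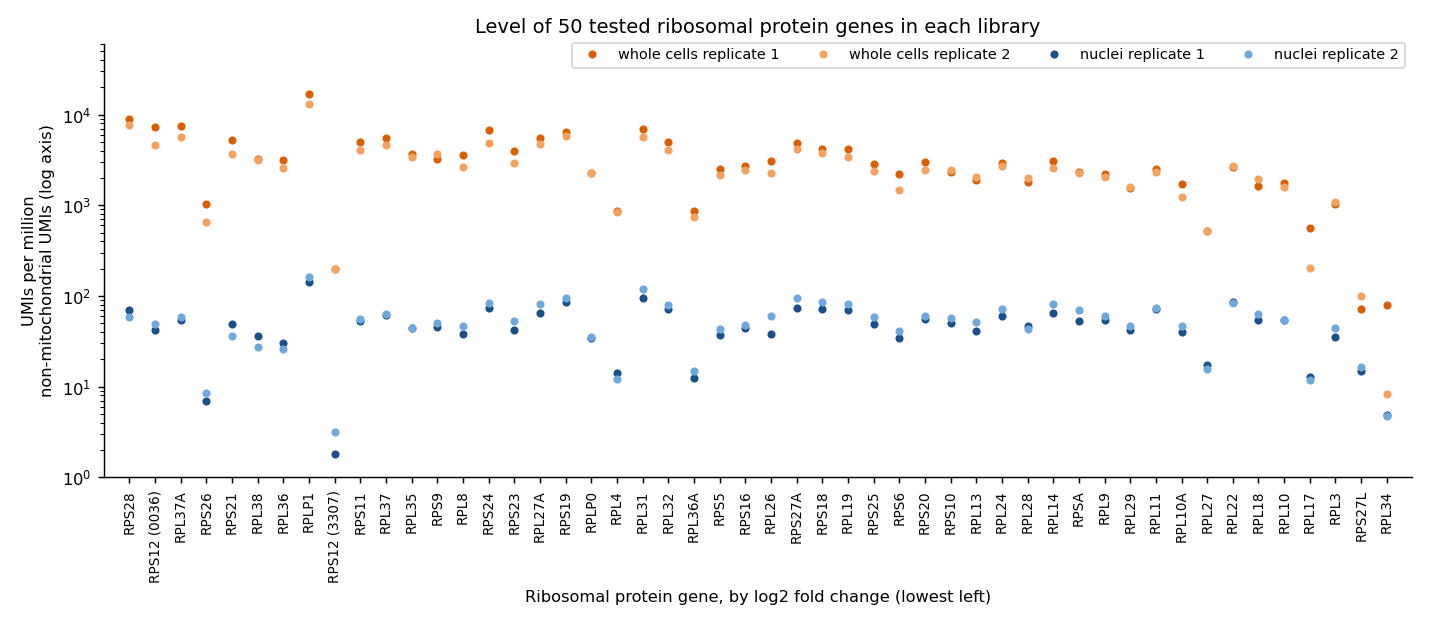
Normalised UMIs, per 1000000 non-mitochondrial UMIs (y axis, log scale), of 50 of the 52 tested ribosomal protein genes in the 4 libraries, ordered on the x axis by log2 fold change of nuclei over whole cells. Whole cells points lie above nuclei points for every gene shown, and the gap is narrowest at the right for RPS27L and RPL34.

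The stalk proteins RPLP1 and RPLP0 anchor the flexible arm of the large subunit that engages elongation factors. RPLP1 gave the most UMIs of any member in whole cells, 2120 and 32458, against 10062 and 8154 in nuclei. In normalised UMIs this was 16829 and 12917 in whole cells and 144 and 161 in nuclei, with a log2 fold change of -6.52 (standard error 0.62, edgeR adjusted p = 6.37e-10). RPLP0 stood at 2286 and 2297 normalised UMIs in whole cells against 34.2 and 34.9 in nuclei. Within each kind its libraries were close together, and its log2 fold change was -6.0. The stalk pair made up 10.5% and 9.97% of the family's UMIs in whole cells against 6.73% and 6.47% in nuclei, with no overlap between kinds.

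Small-subunit genes were lower in nuclei in 21 of 21 tested cases, where 22.4% of all genes were lower and 29.8% higher, with a median log2 fold change of -5.78. RPS28, a small protein near the messenger RNA exit site, had the lowest log2 fold change of the tested members. It was counted 1135 and 19356 times in whole cells and 4895 and 2951 times in nuclei, which is 9009.8 and 7703 normalised UMIs against 70.0 and 58.2, a log2 fold change of -6.94 (standard error 0.64, edgeR adjusted p = 3.29e-10). The main identifier of RPS12 followed, with 921, 11508, 2957 and 2496 UMIs in the same order of libraries and a log2 fold change of -6.90. RPS26 was a low member in every library, with 129, 1663, 486 and 435 UMIs, yet its log2 fold change of -6.65 was among the 5 lowest. RPS21 had 654, 9234, 3420 and 1818 UMIs and -6.59. In each of these genes the lower whole cells library was more than an order of magnitude above the higher nuclei library in normalised UMIs.

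RPS19 and RPS24, small-subunit proteins whose loss in people is known from Diamond-Blackfan anaemia, were among the members with most UMIs in both kinds. RPS19 stood at 6493 and 5835 normalised UMIs in whole cells against 85.4 and 94.2 in nuclei, which is a log2 fold change of -6.03. RPS24 stood at 6684 and 4840.4 normalised UMIs in whole cells against 73.7 and 84.2 in nuclei, which is a log2 fold change of -6.09. RPS27A, which is made as a fusion with ubiquitin and then cut from it, had 4818 and 4150.3 normalised UMIs in whole cells against 74.1 and 94.5 in nuclei. Its log2 fold change of -5.66 was close to the median of the tested members.

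Between the nuclei libraries, levels of single members differed by less than between kinds. The 51 members with at least 200 UMIs in each nuclei library had a median ratio of replicate 2 to replicate 1 of 1.12 and a lowest of 0.733, in RPS21. RPL26, a large-subunit protein, had a ratio of 1.56, with 38.5 and 59.9 normalised UMIs, and RPSA, of the small subunit, a ratio of 1.32, with 52.6 and 69.7. In whole cells the same ratio was 0.741 for RPL26 and 0.974 for RPSA. These ratios compare single pools of animals and have no replicate, and RPL26 and RPSA were named after their values were seen.

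Large-subunit genes outside the stalk were lower in nuclei in 29 of 29 tested cases, where 22.4% of all genes were lower and 29.8% higher, with a median log2 fold change of -5.36. RPL37A, a small zinc-binding protein, had the lowest value of the group. It stood at 7486 and 5723 normalised UMIs in whole cells against 54.5 and 58.8 in nuclei, which is a log2 fold change of -6.77 (standard error 0.63, edgeR adjusted p = 3.82e-10). RPL31 was high in both kinds, with 7009 and 5718 normalised UMIs in whole cells against 94.5 and 118 in nuclei and a log2 fold change of -5.82. RPL37 had 5557 and 4606 normalised UMIs against 61.4 and 63.2, and RPL27A 5541 and 4707 against 65.1 and 82.5.

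RPL22, a large-subunit protein that binds RNA and is largely dispensable for translation in general, was less low in nuclei than most of the family. It stood at 2643 and 2683 normalised UMIs in whole cells against 85.1 and 84.6 in nuclei, which is a log2 fold change of -4.92. RPL3, a protein of the peptidyl transferase centre, stood at 1024 and 1074 normalised UMIs in whole cells against 35.7 and 44.9 in nuclei, which is a log2 fold change of -4.67 (standard error 0.56, edgeR adjusted p = 3.92e-08). The main identifier of RPL17 had 564 and 204 normalised UMIs in whole cells against 12.8 and 11.8 in nuclei, with a log2 fold change of -4.72, and its whole cells libraries were further apart than those of every other member with at least 200 UMIs in each nuclei library except RPL34.

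A pair of members stood apart from the other 50, whose log2 fold changes were all -4.67 or lower. RPS27L is a paralog of RPS27 known as a target of p53. Whole cells gave 9 and 251 UMIs of it and nuclei 1034 and 833, or 71.4 and 99.9 normalised UMIs against 14.8 and 16.4, a log2 fold change of -2.61 (standard error 0.42, edgeR adjusted p = 3.83e-06). For the large-subunit gene RPL34, whole cells gave 10 and 21 UMIs and nuclei 337 and 238. In normalised UMIs this was 79.4 and 8.36 in whole cells against 4.82 and 4.69 in nuclei, which is a log2 fold change of -2.08 (standard error 0.64, edgeR adjusted p = 0.00712), and it was -4.04 for sheep 1 and 2 and -0.83 for sheep 3 and 4. Its call rested on 10 UMIs in whole cells replicate 1. Without that library its log2 fold change was -0.90 with an adjusted p of 0.106 in edgeR. With the total of all UMIs alone as library size, the log2 fold change was 0.72 for RPL34 and 0.43 for RPS27L, with adjusted p of 0.423 and 0.271 in edgeR, and the other 50 members were lower in nuclei, where 3.16% of all genes were. That scaling moved the median of all genes to 3.66. In barcodes with at least 200 genes, RPS27L at -0.18 and RPL34 at -1.38 had adjusted p of 0.828 and 0.234 in edgeR, and the other 50 members were lower, where 11.7% of all genes were.

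The 11 identifiers that did not pass the filter had few or no UMIs. RPL10L and RPL3L, paralogs known mainly from testis and from striated muscle, had 0, 0, 2 and 1 UMIs and 0, 4, 11 and 10 UMIs in whole cells replicates 1 and 2 and nuclei replicates 1 and 2. Symbols with several identifiers made up the rest. RPS25 was carried by 7 identifiers, of which 1 held 362, 5949, 3461 and 2950 UMIs and the other 6 between 0 and 7 in any library. RPL17 was carried by 4, of which 1 was tested, 2 were at 0 in all libraries and 1 had 0, 4, 0 and 3 UMIs. RPS12 was carried by 2, both tested, and the lesser one had 25, 503, 128 and 159 UMIs and a log2 fold change of -6.34. In all, 5 identifiers were at 0 in all 4 libraries and 8 at 0 in both whole cells libraries.

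The make-up of the family differed between kinds more than between libraries of a kind. Over the 52 tested members, Spearman's rho of UMIs per library was 0.979 between the whole cells libraries, 0.948 between the nuclei libraries and 0.656 to 0.762 between kinds, given as a description across genes that share libraries. Large-subunit genes without the stalk made up 45% and 46.7% of family UMIs in whole cells against 52.6% and 50.8% in nuclei. Small-subunit genes made up 44.5% and 43.3% against 40.7% and 42.7%. The large subunit thus held more of the family in nuclei, and the small subunit and the stalk held less, with no overlap between kinds.

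Other genes of the translation machinery were less uniform. Of 6 ribosomal proteins, paralogs and related genes (RSL1D1 and RSL24D1) outside the symbol rule, 6 were lower in nuclei, with a median log2 fold change of -4.14. Over all genes tested 22.4% were lower and 29.8% higher. With library size alone 3 of the 6 were lower and 1 higher, with a median of -1.11, where 3.16% of all genes were lower. In barcodes with at least 200 genes 4 were lower and 0 higher, where 11.7% of all genes were lower. FAU, the fusion gene of RPS30, had 4168 and 3278 normalised UMIs in whole cells against 43.5 and 54.3 in nuclei and a log2 fold change of -6.17. RPL36AL had -4.72. Of 36 genes in a list of translation factors, their partners and a few other genes, 32 were lower, 0 were higher and 4 were not called, with a median of -2.69, beside the same 22.4% and 29.8% of all genes. With library size alone 10 of the 36 were lower and 13 higher, with a median of 0.30, and in barcodes with at least 200 genes 23 were lower and 1 higher. That list holds HNRNPA1, a splicing protein, and VIM, a filament protein, which are no translation factors, and without them 30 of 34 were lower. EEF1A1, which delivers aminoacyl-tRNA to the ribosome, fell most among those with the highest counts, with 7105 and 5982 normalised UMIs in whole cells, 61.8 and 74.7 in nuclei and a log2 fold change of -6.51. TPT1 had -6.30 and RACK1, a scaffold on the small subunit, -4.80.

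Among genes that build ribosomes and genes of the mitochondrial ribosome, calls went both ways in the fits to all libraries without a replicate block. They were more often lower than higher with TMM and more often higher than lower with library size alone. The latter scaling gave 1 lower and 37 higher for biogenesis, with a median log2 fold change of 2.11, and 3 lower and 36 higher for mitochondrial ribosomal proteins, with a median of 1.34, while the median of all genes moved from 0.61 to 3.66. The counts that follow are those with TMM. Of 49 tested genes of ribosome biogenesis, which act in the nucleus and nucleolus for the most part, 21 (42.9%) were lower, 4 (8.16%) higher and 24 not called, beside 22.4% lower and 29.8% higher over all genes tested, with a median log2 fold change of -0.97. Among the 3 with the highest counts, NVL, an ATPase of large-subunit assembly, was higher in nuclei with 1.33 (adjusted p = 0.0152, edgeR), while the helicase DDX10 had 0.91 and the kinase RIOK3 0.93, with adjusted p of 0.103 and 0.086. The call of NVL was lost with the animal pool as a replicate block, with an adjusted p of 0.148 in edgeR. With that block 9 biogenesis genes were lower and 0 higher, so all their calls higher in nuclei were lost. Of the mitochondrial ribosomal protein genes 27 were lower and 2 higher, beside 2246 lower and 3225 higher of the 15781 genes tested. Of 67 mitochondrial ribosomal protein genes, which are encoded in the nucleus for a separate ribosome, 43 (64.2%) were lower, 6 (8.96%) higher and 18 not called, beside the same shares over all genes, with a median of -1.74. MRPS6 had 1.87 (adjusted p = 0.00267), MRPL22 1.57 (adjusted p = 0.00515) and MRPL3 0.39 (adjusted p = 0.476), all in edgeR. With the block, the adjusted p in edgeR was 0.0506 for MRPS6 and 0.0922 for MRPL22. The genes named so far from both lists were picked by CPM on totals that include mitochondrial UMIs, which lowers CPM in whole cells. That rule favours genes high in nuclei, and all of those genes had positive log2 fold changes. Others lay far lower, such as FBL of biogenesis with -4.48, MRPL40 with -5.33 and MRPS26 with -5.08. Over these 4 lists, 102 genes were lower in the fit without a block and 66 with it, while over all genes tested the number went from 3536 to 2246. Without whole cells replicate 2 the number was 52, and that fit moved the median of all genes from 0.61 to 4.37.

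**Figure D3:**
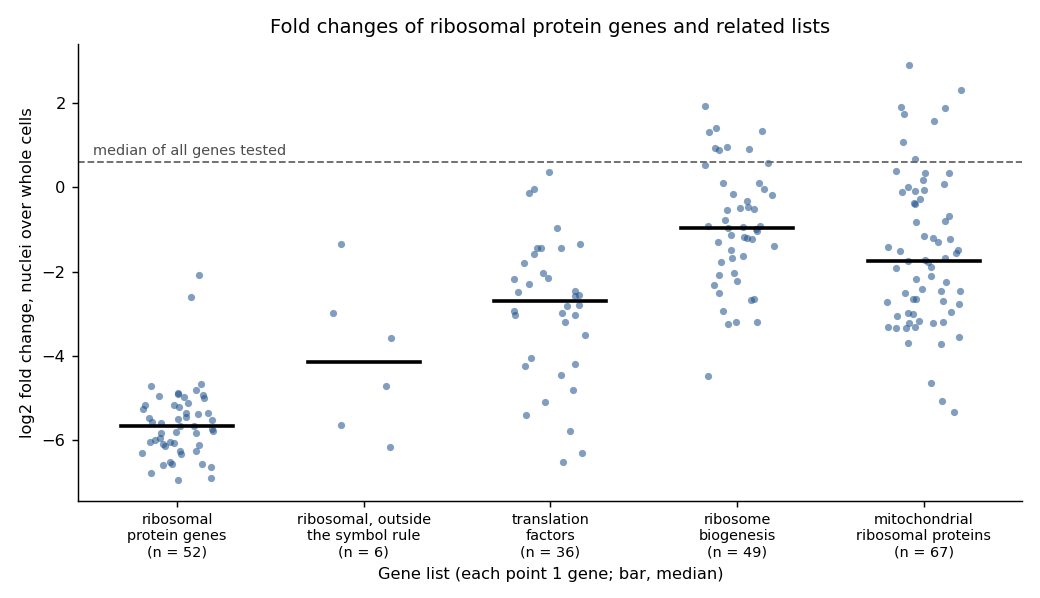
Log2 fold change of nuclei over whole cells (y axis) for each tested gene of 5 lists (x axis), 1 point per gene, with black bars at the list medians and a dashed line at the median of all genes tested (0.61). The 52 ribosomal protein genes lie between -6.94 and -2.08, while some biogenesis and mitochondrial ribosomal genes lie above the dashed line and all genes of the other 2 lists lie below it.

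Across nuclei, the family's share was read in classes of nuclei from clustering that used neither ribosomal protein nor mitochondrial genes. Of the nuclei that passed the filters 16698 were kept, in 18 clusters, most of them named by marker genes and the rest left unnamed. The 6 classes with at least 200 nuclei in each library were compared, as a description in 2 libraries with no test. Medium spiny neurons are the main projection neurons of striatum, and nuclei like them formed 2 clusters of 1136 and 1289, with DRD2 leading 1 of them. The neuron-like class rested on 3 markers and is a weak name. It had that name in this clustering alone: under each of the other 5 settings the cluster that held the largest number of its nuclei was unnamed, and the name went to a cluster too small to compare. The name neuron-like below stands only for the cluster led by NDST4 and FAM216B that this clustering found. Scrublet called 390 of 8700 nuclei (4.48%) as doublets in replicate 1 and 0 of 8388 in replicate 2. In replicate 2 the caller therefore failed, and its doublets were kept.

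Of the 6 compared classes, microglia-like and neuron-like nuclei had the highest ribosomal protein shares and medium spiny neuron-like nuclei the lowest. The share was 0.603% and 0.576% in the 865 and 1031 microglia-like nuclei of replicates 1 and 2, and 0.563% and 0.711% in the 494 and 286 neuron-like nuclei, so these 2 classes changed places between libraries. Under the other 5 settings that unnamed cluster had 0.521% to 0.584% in replicate 1 and 0.579% to 0.717% in replicate 2, beside 0.539% to 0.585% and 0.529% to 0.571% in microglia-like nuclei, but as an unnamed cluster it was not among the compared classes there. Astrocyte-like nuclei had 0.399% and 0.423%, oligodendrocyte-like nuclei 0.381% and 0.393%, and oligodendrocyte precursor-like nuclei 0.328% and 0.383%. The ranges of the oligodendrocyte-like and precursor-like classes overlapped, and the astrocyte-like class lay just above both. The order of astrocyte-like and oligodendrocyte-like nuclei turned in replicate 1 with members and mitochondrial genes kept for clustering (0.350% against 0.381%) and at Leiden resolution 1.0 (0.350% against 0.369%). It turned in both libraries among nuclei with at most 1% mitochondrial UMIs (0.337% against 0.342% and 0.337% against 0.355%). There the precursor-like class, with 0.362% and 0.362%, lay above the astrocyte-like and oligodendrocyte-like classes in both libraries. Medium spiny neuron-like nuclei had 0.191% (Wilson 95% interval 0.189 to 0.192%) and 0.227% (0.226 to 0.229%), below the other 5 compared classes in both libraries. With members and mitochondrial genes kept for clustering, and with doublets kept, an interneuron-like class was large enough to compare, and in replicate 2 it lay below the medium spiny neuron-like class (0.211% against 0.227% and 0.210% against 0.228%), so the lowest place was lost there. Clusters that were not compared lay on both sides of these classes. An unnamed cluster of 73 and 85 nuclei had 0.151% and 0.162%, below the medium spiny neuron-like class in both libraries. A cluster of 35 and 28 interneuron-like nuclei led by ECEL1 and ACHE had 1.33% and 1.71%. A lymphocyte-like cluster of 11 and 9 nuclei had 1.47% and 1.56%, and a cluster of 32 and 23 nuclei with vascular and fibroblast genes (ERG and NOSTRIN among its leading genes) had 1.05% and 1.19%.

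**Figure D4:**
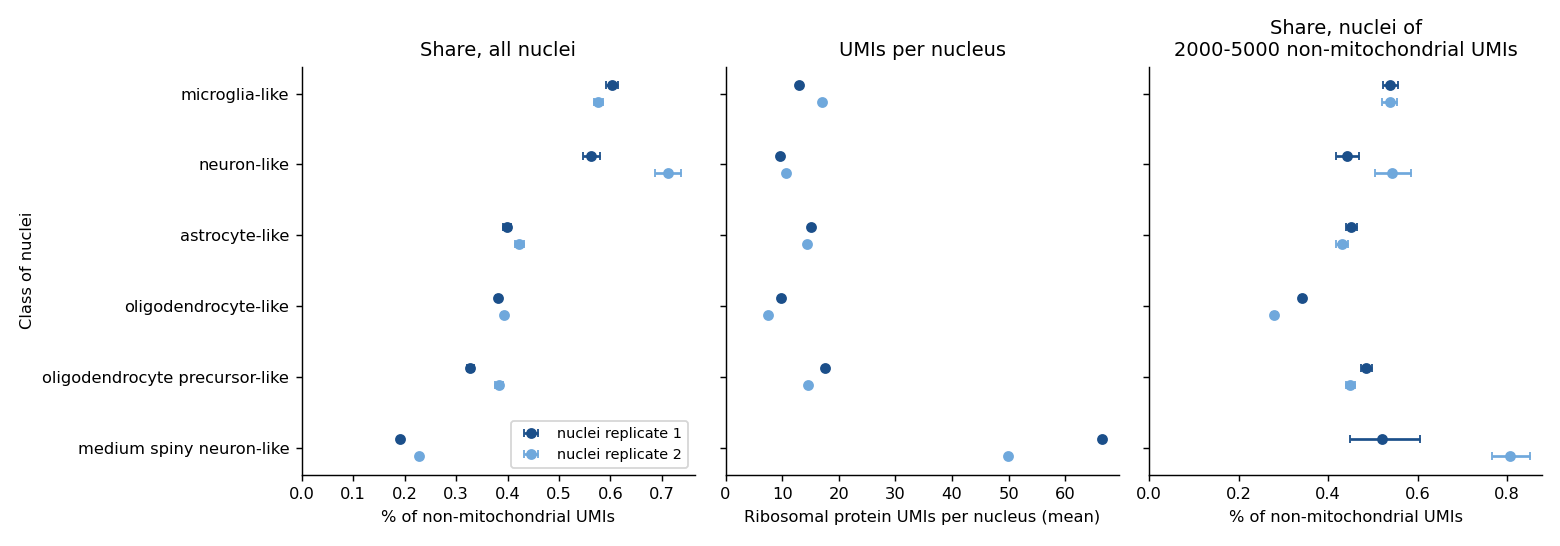
Ribosomal protein UMIs in 6 classes of nuclei (y axis) in nuclei replicates 1 and 2: percent of non-mitochondrial UMIs with Wilson 95% intervals (left), mean UMIs per nucleus (middle) and the percent in nuclei of 2000 to 5000 non-mitochondrial UMIs (right). Medium spiny neuron-like nuclei are lowest by share in all nuclei, at 0.191% and 0.227%, highest in UMIs per nucleus, at 66.5 and 49.9, and no longer lowest within the depth window.

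Per nucleus, medium spiny neuron-like nuclei were the highest of the 6 compared classes and not the lowest. They held a mean of 66.5 and 49.9 ribosomal protein UMIs. Among clusters that were not compared, an interneuron-like one of 21 and 30 nuclei held 49.0 and 52.2 and an unnamed one of 145 and 158 nuclei 52.7 and 51.6, both above the medium spiny neuron-like class in replicate 2. The mean was 17.6 and 14.6 in the precursor-like class, 15.1 and 14.3 in the astrocyte-like, 13.0 and 17.0 in the microglia-like, 9.65 and 10.7 in the neuron-like and 9.80 and 7.55 in the oligodendrocyte-like class. Depth moved with the classes. The median UMIs per nucleus were 31991.5 and 17711 in medium spiny neuron-like nuclei, 1744 and 1601 in microglia-like nuclei and 1330.5 and 1209 in neuron-like nuclei. Microglia-like over medium spiny neuron-like nuclei, a pair chosen after the values were seen, gave 3.16 and 2.53-fold. Among nuclei with 2000 to 5000 non-mitochondrial UMIs the ratio was 1.03 and 0.666, from only 9 and 50 medium spiny neuron-like nuclei with shares of 0.521% and 0.807%, so the order of these classes turned round in replicate 2 at that depth and was kept by a narrow margin in replicate 1. In the same window oligodendrocyte-like nuclei were lowest, with 0.342% and 0.280%, and microglia-like nuclei had 0.539% and 0.538%.

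Within a class, clusters differed too. The oligodendrocyte-like class held 3 clusters, with shares of 0.535% and 0.506%, 0.343% and 0.259%, and 0.318% and 0.317% in replicates 1 and 2. Most of the first came from replicate 2 (2362 of 3388 nuclei) and most of the next from replicate 1 (2185 of 3101). The microglia-like class held a cluster led by the proliferation genes TOP2A and PCLAF, with 0.561% and 0.539%, and a larger one with 0.617% and 0.614%. The former was of mixed make-up, with 7 microglia markers, 4 of astrocytes and 2 of oligodendrocyte precursors. Under other settings a cluster led by TOP2A was unnamed, took the precursor name or kept the microglia name. It held 19.6 and 44.5 ribosomal protein UMIs per nucleus against 11.8 and 11 in the larger cluster, so the class mean of 17.0 in replicate 2 rested on it. Mitochondrial RNA moved with the share as well. From nuclei under 0.25% mitochondrial UMIs to those with 2 to 5%, the share went from 0.202% to 0.438% in replicate 1 and from 0.149% to 0.624% in replicate 2, while the median UMIs per nucleus went from 3635 to 1849 and from 5655 to 1292.5. The part of mitochondrial RNA and depth in the class differences was not tested.

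Single members followed the family across classes for the most part. Of the 51 members with at least 200 UMIs in each nuclei library, 48 (94.1%) were lowest in normalised UMIs in medium spiny neuron-like nuclei in both libraries, where 28.3% of the 10408 genes with as many UMIs were. The highest class in both libraries was the neuron-like for 14 members (27.5%), where it was for 11.6% of those genes. It was the microglia-like for 8 members (15.7%), below the 21.7% of those genes. It was the oligodendrocyte precursor-like for 1 member (1.96%), below the 5.0% of those genes, and for the rest it changed between libraries. RPLP1 stood at 376 and 357 normalised UMIs in microglia-like nuclei, 324 and 338 in neuron-like, 271 and 269 in astrocyte-like, 237 and 236 in oligodendrocyte-like, 221 and 234 in oligodendrocyte precursor-like and 87.5 and 104 in medium spiny neuron-like nuclei. The order of the 6 classes was the same in both libraries, and the gap between the oligodendrocyte-like and precursor-like classes was the narrowest in replicate 2.

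The members with the largest ratio of the highest class to the mean of the classes were RPS20, RPS27L and RPL32. RPS20, a small-subunit protein, stood at 165 and 149 normalised UMIs in microglia-like nuclei against 93.3 and 86.3 in neuron-like and 42.5 and 45.7 in medium spiny neuron-like nuclei. RPL32, of the large subunit, stood at 200 and 208 normalised UMIs in neuron-like nuclei against 164 and 140 in microglia-like nuclei. RPS27L stood at 46.1 and 49.0 normalised UMIs in neuron-like nuclei, from 39 and 21 UMIs, and at 8.19 and 10.7 in medium spiny neuron-like nuclei.

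RPL13, a large-subunit protein, took a larger place in the family in 1 class. In oligodendrocyte precursor-like nuclei it gave 363 of 10371 and 433 of 11563 ribosomal protein UMIs, which is 3.50% and 3.74%. Its share of the family was 1.79% and 2.20% in microglia-like nuclei, 1.43% and 1.94% in neuron-like, 1.31% and 1.71% in astrocyte-like, 1.33% and 1.51% in oligodendrocyte-like and 1.39% and 1.24% in medium spiny neuron-like nuclei. The precursor class was above every other class in both libraries, 2.52 and 2.18 times the median of the others. RPL13 stood at 115 and 144 normalised UMIs in precursor-like nuclei and at 50.6 and 59.5 in oligodendrocyte-like nuclei. Of 306 pairs of a member and a class, this was the only 1 at 1.5 times or more in both libraries, and 1 other, RPS26 in the same class, was as far below the median of the other classes in both (0.515 and 0.606 times). RPL13 was singled out after these values were seen. Under the other 5 ways of filtering and clustering the nuclei its share of the family in the precursor class was 3.12% to 3.76%.

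Shifts within the family were seen for a few others, named after their values were seen. RPS26 made up 0.343% and 0.407% of family UMIs in oligodendrocyte-like nuclei and 0.125% and 0.199% in precursor-like nuclei, the latter from 13 and 23 UMIs. RPL22 made up 3.75% and 3.48% in medium spiny neuron-like nuclei and 2.07% to 3.03% in the other classes. RPSA, which is also known as a laminin receptor precursor, made up 2.61% and 3.36% in microglia-like nuclei and 1.79% to 2.76% elsewhere, and was highest in microglia-like nuclei within each library while the classes overlapped across libraries.

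**Figure D5:**
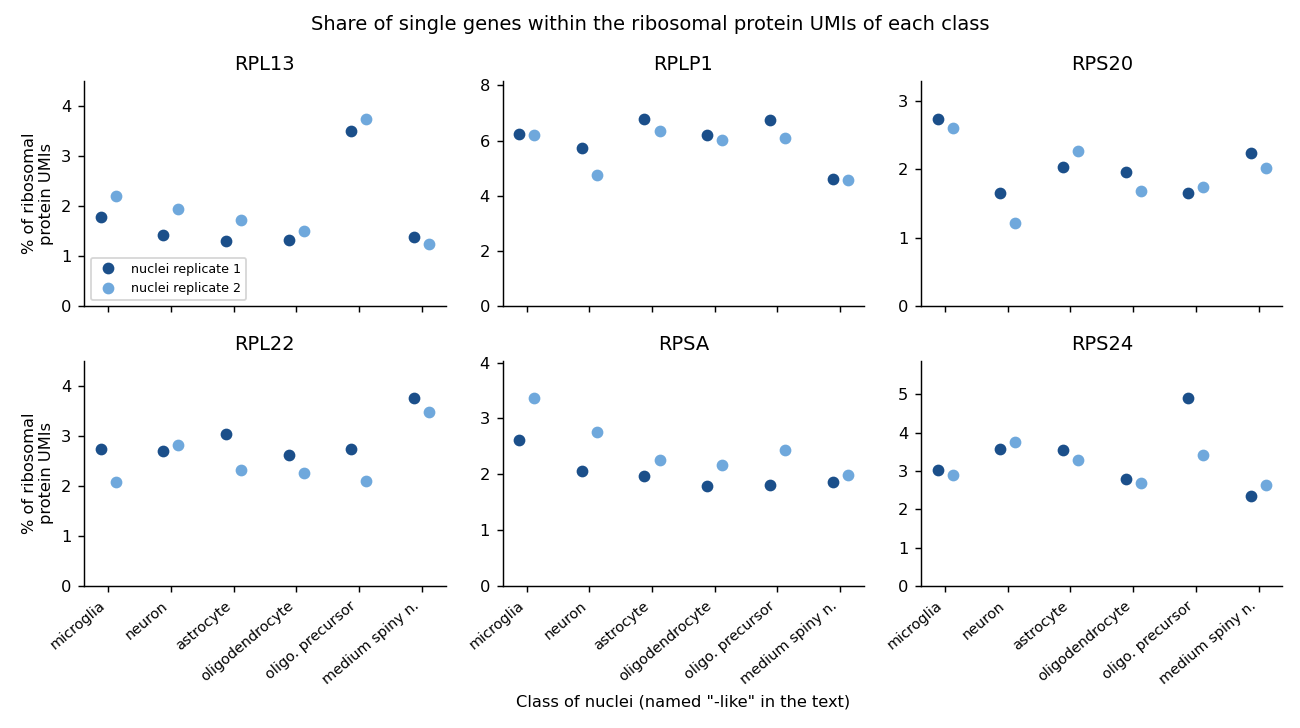
Percent of all ribosomal protein UMIs of a class (y axis) given by RPL13, RPLP1, RPS20, RPL22, RPSA and RPS24 in 6 classes of nuclei (x axis), with 1 point per nuclei library. RPL13 is highest in the oligodendrocyte precursor class in both libraries (3.50% and 3.74%), and RPL22 is highest in the medium spiny neuron class in both (3.75% and 3.48%).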

How the data were processed

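Members, gene lists and comparisons were chosen with earlier results of these data known. The authors deposited raw UMI counts, 1 matrix per library; per the file headers Cell Ranger 6.0.1 (whole cells) and 7.0.0 (nuclei) made them. The submitters' processing notes also list Cell Ranger 2.1.1 and STAR 2.7.2a with no role. Genome build, annotation and intron counting are not given in the sources used here, so no coordinates are printed, and sequences and gene lengths are not used here. UMI counts are not divided by gene length.

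Counts were summed over all barcodes of each library and tested with edgeR 4.0.16 in R 4.3.3 (quasi-likelihood test, TMM, filterByExpr, adjusted p under 0.05). Fold changes are nuclei over whole cells, and SE is the absolute log2 fold change over the square root of F. DESeq2 1.42.0 was an alternative. On simulated counts of 16303 genes, recovery was 65% for a 4-fold change and 100% for a 16-fold change, with 8 of 16103 unchanged genes called. All simulated libraries shared the same pooled profile and a fixed dispersion, without the mitochondrial and composition difference between kinds. The simulation therefore cannot give the recovery or the rate of false calls in these data. Same-numbered libraries share animals by their titles; the deviations of same-pool libraries had a correlation of -0.062 over 1765 genes, and the blocked fit was an alternative.

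Nuclei of 200 genes or more and a mitochondrial share of 5% or less were clustered with scanpy 1.11.5 (Scrublet at an expected rate of 0.08, 10000 UMIs, 2000 variable genes, 30 components, 15 neighbours, Leiden resolution 0.5). A cluster took the name with most markers, at least 3, each 2-fold above the mean of the other clusters and seen in 10% of its nuclei. That reference, the tie rule that gives neurons the more specific name, the minimum of 200 nuclei per library, the ratio of microglia to medium spiny neurons and the factor of 1.5 were set after seeing the data.

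Members named were the 10 with the highest mean CPM (counts per 1000000 UMIs of the library) in each kind, the 5 lowest and 5 highest fold changes, those not tested, symbols with several identifiers and, across classes, the 6 with most UMIs in nuclei and the 3 with the largest ratio of the highest class to the mean. Of related lists, the 3 genes with the highest mean CPM over all libraries were named, and FBL, MRPL40 and MRPS26 were added after their values were seen. Some genes that these rules name are not reported here. Wilson 95% intervals cover counting error only. By the titles the pools of a kind come from different animals, though the protocol text differs for a suspension of cells. The p-values measure the spread between these libraries.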

Additional observations from a re-analysis of the deposited data

How the results depend on the processing

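The 52 calls of tested members became 50 with library size alone and in barcodes with at least 200 genes, and 53 of 58 with no filter on low counts. They were 51 to 52 when a library was left out, 52 with the replicate block, and 52 in DESeq2. The reversed values were 0.72 for RPL34 and 0.43 for RPS27L, both with library size alone. The median log2 fold change of members minus that of all genes was -6.27, -6.95 with no filter, -3.71 in barcodes with at least 200 genes, and -9.85 to -6.40 with a library left out; the lowest was without whole cells replicate 2. The log2 ratio of shares was -5.88, -2.85 over all UMIs, -3.91 in barcodes with at least 200 genes and -3.32 in barcodes with at least 500 non-mitochondrial UMIs, a limit chosen after seeing the data. The log2 ratio of microglia-like to medium spiny neuron-like shares was 1.5 and turned to -0.27 in nuclei with 2000 to 5000 non-mitochondrial UMIs, a window chosen after seeing the data, where it was 0.05 in replicate 1, from 9 medium spiny neuron-like nuclei, and -0.59 in replicate 2. The related lists had 102 genes lower, 17 with library size alone, 66 with the replicate block, 56 in barcodes with at least 200 genes and 52 to 112 with a library left out. The cause of these shifts was not tested. With library size alone 96.2% of calls were higher in nuclei, against 57.0% with TMM. All calls lower numbered 3536 with TMM, 498 with library size alone, 2246 with the block and 1796 in barcodes with at least 200 genes. Over single genes and settings, 378 values kept their call, 16 gained one, 12 lost one and 2 reversed. Depth limits whole cells replicate 1 most, where RPL34 had 10 UMIs and RPS27L 9.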
